A study of Mus musculus with 2 samples.

Results

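The 10 genes described here are the osteochondrogenic regulators Sox9, Runx2, Sp7, Dlx5, Msx1 and Msx2, the mineralization enzymes Alpl and Phex, and the bone matrix proteins Ibsp and Bglap. They were taken by symbol from the 32285 genes of the matrices, and all 10 were found once. They were read in the stromal cells of a skull wound and in the other cell classes recovered with them. The cells came from scaffolds placed in mice and were profiled as 1 droplet library per scaffold. The Gel50_CS50 library was made from Balb/c females aged 6 weeks whose 3.5 mm cranial defect had been filled for 1 week with a cell-free Gel50_CS50 scaffold, and the Gel100 library from mice treated alike with a cell-free Gel100 scaffold. The scaffold names are used as labelled. Each library pooled the cells of 5 mice, which cannot be told apart, so there is no replicate and no test between scaffolds. Every difference below is between 2 libraries, and its 95% interval covers counting error alone and says nothing of the spread between mice.

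Membranous bone of the skull is built by osteoblasts that arise from mesenchymal progenitors. In that lineage Runx2 is the transcription factor needed to enter the osteoblast fate, and Sp7 (osterix) acts after it. Dlx5, Msx1 and Msx2 are homeodomain factors of the neural crest, limb and suture mesenchyme, and Sox9 sets the cartilage fate. Alpl, the tissue-nonspecific alkaline phosphatase, releases phosphate for mineral and appears early, whereas Ibsp (bone sialoprotein) and Bglap (osteocalcin) are secreted by cells that deposit mineral. Phex is a surface peptidase of osteoblasts and osteocytes that restrains the phosphate hormone Fgf23.

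In mm10 the regulators lie at chr11:112782224-112787760 (Sox9, plus strand), chr17:44495987-44814797 (Runx2), chr15:102356606-102367182 (Sp7), chr6:6877805-6882085 (Dlx5), chr5:37820485-37824583 (Msx1) and chr13:53466884-53473074 (Msx2). The enzymes and matrix genes lie at chr4:137741733-137796384 (Alpl), chrX:157162075-157415312 (Phex), chr5:104299171-104311469 (Ibsp, plus strand) and chr3:88383501-88384464 (Bglap). All but Sox9 and Ibsp are on the minus strand, and all are annotated as protein coding. The span of Runx2 overlaps Supt3, Runx2os1, Runx2os2, Runx2os3 and n-R5s27, and that of Phex overlaps 3 predicted genes. Bglap has 2 neighbouring copies, Bglap2 and Bglap3. The last 150 transcript bases, where a 3' library is read, were 100% identical to those of Bglap2 and 98.7% identical to those of Bglap3 over the aligned part, so counts can be split between the copies and the Bglap level is uncertain.

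Promoters of the lineage factor and of the 2 matrix genes are shown because Runx2 is the factor that binds a short core in bone genes. The 250 bases before the RefSeq start are from the RefSeq table of GRCm38.p6, which has 7 of the 10 genes (not Sp7, Dlx5 or Sox9). They read 5' to 3' along the gene, and capitals mark the RUNX core, TGTGGT or its reverse complement ACCACA, searched on both strands. The windows are Runx2 at chr17:44814628-44814877 (minus strand), Bglap at chr3:88384467-88384716 (minus strand) and Ibsp at chr5:104299037-104299286 (plus strand).
Runx2: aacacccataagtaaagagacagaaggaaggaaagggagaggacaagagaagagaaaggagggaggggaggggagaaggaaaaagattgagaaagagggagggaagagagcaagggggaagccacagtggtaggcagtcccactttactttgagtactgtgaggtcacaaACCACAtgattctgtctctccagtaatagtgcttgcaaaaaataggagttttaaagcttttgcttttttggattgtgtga
Bglap: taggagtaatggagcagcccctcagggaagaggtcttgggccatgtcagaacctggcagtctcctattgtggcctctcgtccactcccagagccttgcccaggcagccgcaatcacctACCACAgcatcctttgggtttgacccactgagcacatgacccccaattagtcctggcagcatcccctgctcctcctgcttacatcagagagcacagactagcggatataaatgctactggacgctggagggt
Ibsp: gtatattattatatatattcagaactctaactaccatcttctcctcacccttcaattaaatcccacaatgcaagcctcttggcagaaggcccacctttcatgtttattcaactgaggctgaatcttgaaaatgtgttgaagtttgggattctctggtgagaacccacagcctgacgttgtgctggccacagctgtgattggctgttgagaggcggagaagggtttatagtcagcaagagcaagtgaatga
The core starts 80 bases before the start of Runx2 and 132 bases before that of Bglap. It was not in the window of Ibsp, nor in those of Msx1, Msx2, Phex and the 2 listed starts of Alpl. Of all 32851 promoters in the table, 4614 hold the core in the same window. A second motif, the homeodomain core TAATTG or CAATTA, which does not overlap the first by its letters, was found once each in Bglap, Ibsp and Phex and in 7.17% of all promoters. These matches describe the reference sequence and not binding in these cells.

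After filtering, 7206 Gel50_CS50 cells and 7601 Gel100 cells remained, with median depths of 16509.5 and 12707 UMIs (unique molecular identifiers, each 1 counted RNA molecule). Cells under 1000 UMIs made up 1.42% and 11.3%, and 22 barcodes stood in both libraries. Stromal cells, named from clusters that scored highest for fibroblast and mesenchymal markers, numbered 656 (9.10%) in Gel50_CS50 and 256 (3.37%) in Gel100. Their median depth was 53741.5 and 45155.5 UMIs, but the lower quartile was 41128 and 8292, so the Gel100 class had a shallow tail. Col1a1 stood at 10629 CPM (counts per 1000000 of the summed counts of a class) in the Gel50_CS50 stromal cells and 10393 CPM in the Gel100 ones. RNA of immune cells was present as well, with a UMI of Lyz2 in 98.9% and 97.3% of stromal cells and of Ptprc in 30.6% and 40.6%.

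In stromal cells the 10 genes ranged from widely read to close to absent in the counts. Runx2, Msx1 and Sox9 were each found in at least 288 Gel50_CS50 cells, Alpl in a small subset, and Sp7, Dlx5, Msx2 and Phex in at most 60 cells of a library with at most 9 UMIs in any cell. Ibsp and Bglap, which mark mineral-forming osteoblasts, came down to at most 2 cells in either library. For Bglap the count is also limited by the 3' end it shares with Bglap2. A gene was counted as measured at a mean of at least 1 CPM over the 2 libraries, which 5 of the 10 reached (Sox9, Runx2, Msx1, Msx2 and Alpl); Phex, at a mean of 0.999 CPM, fell just below.

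Runx2 held 9688 UMIs in the Gel50_CS50 stromal cells (257 CPM, 252 to 263) and 2375 in the Gel100 ones (212 CPM, 204 to 221). The log2 ratio of Gel50_CS50 over Gel100 was 0.28 (0.21 to 0.34). With each cell weighted equally the ratio was 0.09, so the difference was small and depended on how cells were weighted. A UMI was seen in 91.5% of Gel50_CS50 and 80.1% of Gel100 cells. At an equal depth of 3000 UMIs per cell the shares were 40.7% (36.9 to 44.6) of 653 cells and 41.3% (34.7 to 48.0) of 223 cells, and their intervals overlapped. Macrophages thinned to the same depth had a Runx2 UMI in 5.93% and 5.72% of cells, below the stromal share in both libraries. A Runx2 difference between the libraries was not particular to stromal cells. Its log2 ratio was 0.58 (0.44 to 0.72) in conventional dendritic cells and 0.39 (0.10 to 0.68) in neutrophils. It was 0.09 (0.06 to 0.125) in plasmacytoid dendritic cells. The intervals included 0 in macrophages (-0.04 to 0.16), T and NK cells (-0.12 to 0.05) and endothelial cells (-1.17 to 0.78).

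Sp7 gave 28 UMIs in 22 cells of Gel50_CS50 (0.74 CPM) and 10 in 6 cells of Gel100 (0.89 CPM). Macrophages, at a median of 18850 and 16311.5 UMIs, had a Sp7 UMI in 0.468% and 0.488% of cells, against 3.35% and 2.34% of the deeper stromal cells. The log2 ratio of Sp7 between scaffolds was -0.27 with an interval of -1.35 to 0.94, so a difference in either direction was not detectable at this depth.

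Of the homeodomain factors, Msx1 was the one read in many cells. It held 1212 UMIs in 288 Gel50_CS50 cells (32.2 CPM) and 307 UMIs in 78 Gel100 cells (27.5 CPM), a log2 ratio of 0.23 (0.05 to 0.42). The ratio turned to -0.14 in cells thinned to 3000 UMIs and to -0.02 in stromal cells with no Ptprc UMI. At 10000 UMIs a cell, Msx1 was found in 24.4% (21.2 to 27.9) of Gel50_CS50 and 22.8% (17.0 to 29.4) of Gel100 cells. Macrophages before thinning had a Msx1 UMI in 0.468% and 0.352% of cells.
Msx2 had 93 UMIs (2.47 CPM) in Gel50_CS50 and 21 (1.88 CPM) in Gel100, and its ratio of 0.40 had an interval of -0.30 to 1.15. Dlx5 had 39 UMIs in 26 Gel50_CS50 cells (1.04 CPM) and 2 UMIs in 1 Gel100 cell (0.18 CPM). Its log2 ratio was 2.53, with a wide interval of 0.58 to 5.63 that came from 2 counts in Gel100.

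Sox9, the cartilage regulator, held 956 UMIs in 318 Gel50_CS50 cells (25.4 CPM) and 338 in 91 Gel100 cells (30.2 CPM). The log2 ratio was -0.25 (-0.43 to -0.07). It was 0.00 with cells weighted equally and 0.15 after thinning to 3000 UMIs, so its direction was not stable. A few cells weighed more in Gel100, where the 10 cells with most Sox9 held 43.8% of its UMIs, against 15.7% for the top 10 in Gel50_CS50. At 10000 UMIs a cell the shares with a Sox9 UMI were 17.2% (14.4 to 20.3) in Gel50_CS50 and 16.4% (11.4 to 22.5) in Gel100, against an unthinned share of 48.5% and 35.5%. In macrophages, before thinning, the share was 0.165% and 0.163%.

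**Figure D1:**
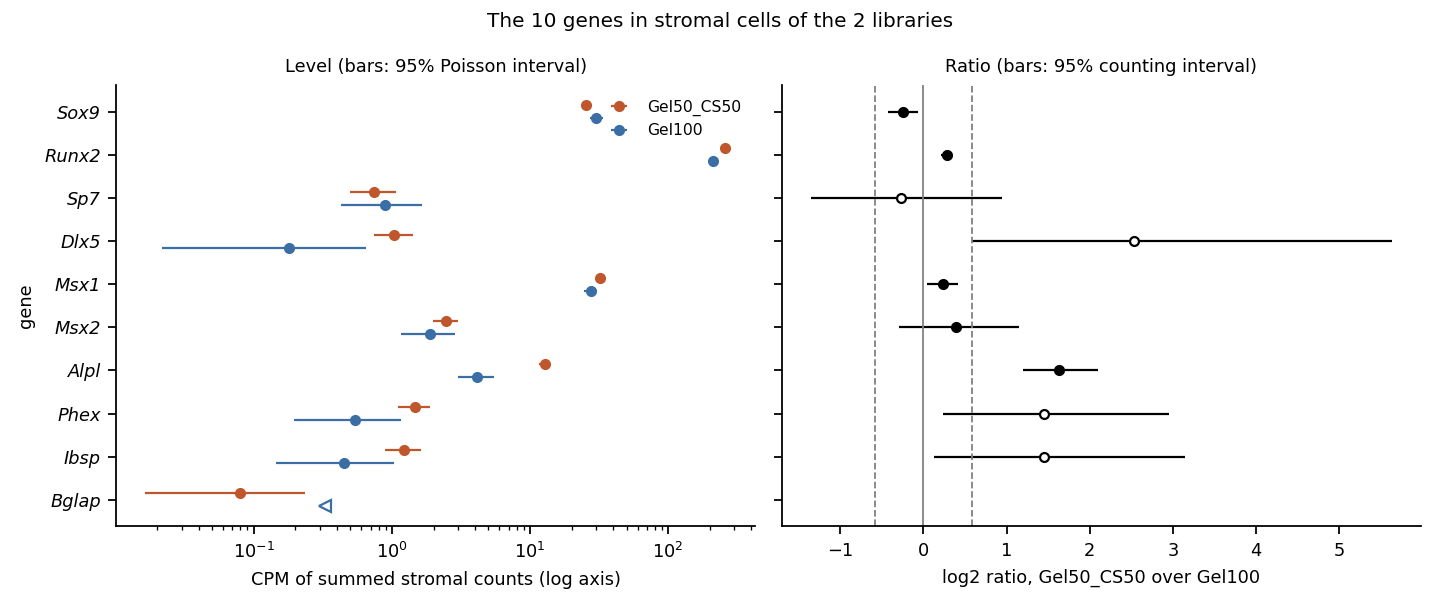
Level of each of the 10 genes in summed stromal counts (left, CPM, log axis) and log2 ratio of Gel50_CS50 over Gel100 (right), with 95% counting intervals; solid lines mark no change, dashed lines 1.5-fold, open circles genes under a mean of 1 CPM and the open triangle the upper limit of Bglap at 0 UMIs. Alpl is the measured gene whose whole interval lies past a dashed line, at 1.63 (1.19 to 2.10).

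Alpl was the measured gene with the largest ratio between the libraries. It held 479 UMIs in 70 Gel50_CS50 stromal cells (12.7 CPM, 11.6 to 13.9) and 46 UMIs in 11 Gel100 cells (4.12 CPM, 3.01 to 5.49). The log2 ratio was 1.63 (1.19 to 2.10), or 3.09-fold. Among the 5 measured genes, 1 (Alpl) had its whole interval beyond 1.5-fold higher in Gel50_CS50 and 0 lower. Among all 14295 genes measured in stromal cells, 1.18% were higher and 3.53% lower by that rule, 4.71% in all. The median log2 ratio of the 5 was 0.28, beside -0.03 over all measured genes. The Alpl transcripts were concentrated in few cells. In Gel50_CS50, 1 cell held 95 of the UMIs, the next 23, and the top 10 together 52.2%, while in Gel100 the top cell held 17. Leaving out the highest cell of each library gave a ratio of 1.97 (1.42 to 2.57). Thinned to 3000 UMIs per cell, Alpl was at 0.65 (-0.35 to 1.80) and its interval no longer lay beyond 1.5-fold, with 21 of 653 Gel50_CS50 cells and 4 of 223 Gel100 cells positive. Without thinning, the share with an Alpl UMI was 10.7% (8.4 to 13.3) in Gel50_CS50 and 4.30% (2.2 to 7.6) in Gel100, and 0.193% and 0.217% in macrophages. At 10000 UMIs a cell the stromal shares were closer, at 5.84% (38 of 651 cells) in Gel50_CS50 and 3.70% (7 of 189 cells) in Gel100. The Gel100 share thus rests on few cells. Neutrophils, which can express this gene in humans, held 1 and 0 UMIs. In T and NK cells the log2 ratio of Alpl was also above 0, at 1.99 (0.46 to 3.69) from 12 and 6 UMIs. In macrophages it was -0.46 (-2.15 to 1.20) from 7 and 8 UMIs.

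**Figure D2:**
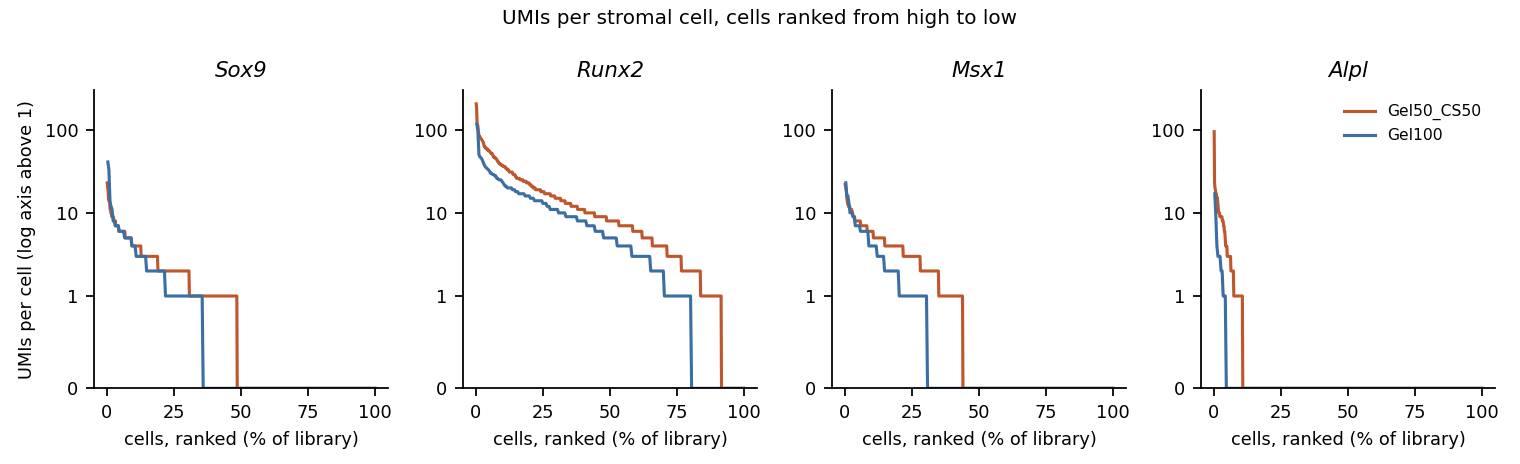
UMIs of Sox9, Runx2, Msx1 and Alpl in each stromal cell, cells ranked from high to low as a percentage of their library (656 cells of Gel50_CS50, 256 of Gel100), on an axis that is logarithmic above 1 and without correction for depth. Alpl reaches 0 after 10.7% of Gel50_CS50 and 4.30% of Gel100 cells, whereas Runx2 extends over 91.5% and 80.1%.

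Most Alpl-positive cells also carried Runx2. At 10000 UMIs a cell, Runx2 was found in 35 of 38 Gel50_CS50 cells with Alpl (92.1%, 78.6 to 98.3) and in 67.2% (63.3 to 70.9) of the 613 without it. In Gel100, all 7 cells with Alpl were among the 139 with Runx2, and 0 of the 50 cells without Runx2 had Alpl. Msx1 was found in 44.7% (28.6 to 61.7) of the cells with Alpl and in 23.2% (19.9 to 26.7) of those without it in Gel50_CS50. Sox9 went the other way in that library, at 5.26% (0.64 to 17.7) of cells with Alpl and 17.9% (14.99 to 21.2) of those without, but in Gel100 3 of the 31 Sox9 cells had Alpl. These shares compare cells of 2 stromal clusters, 15 and 17, described below. In Gel50_CS50, Alpl had 473 UMIs in cluster 15 and 6 in cluster 17, and Msx1 had 1153 and 59. Cells without Alpl lay in both clusters, and whether the shares differ within cluster 15 was not tested. Alpl was lower in cells with cell-cycle RNA. In those with at least 3 UMIs of Mki67 and Top2a together, which were deeper (median 74702 UMIs, against 49447.5 in the others, in Gel50_CS50 and 73146.5 against 38747 in Gel100), Alpl stood at 2.22 CPM, against 17.2 CPM in the other stromal cells of Gel50_CS50, and at 0.27 CPM against 5.98 CPM in Gel100. Runx2 stood at 264 CPM in those cells and 255 CPM in the others of Gel50_CS50, and at 214 and 212 CPM in Gel100.

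Phex had 55 UMIs in 41 Gel50_CS50 cells (1.46 CPM) and 6 UMIs in 5 Gel100 cells (0.54 CPM), and its log2 ratio of 1.44 had an interval of 0.23 to 2.95. The ratio was 0.49 (-0.43 to 1.53) with each library clustered alone and 0.89 (-0.47 to 2.61) with stromal cells gated cell by cell, and both of these intervals crossed 0. Macrophages held it at 0.85 and 0.96 CPM, so in Gel100 the stromal level was not above that of macrophages. T and NK cells held 3.23 and 2.03 CPM.

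The matrix genes rested on single cells. In Gel50_CS50 all 46 Ibsp UMIs came from 1 cell of 656, which also held 81 UMIs of Runx2, 298 of the matrix gene Spp1, 1327 of Col1a1 and 125 of the cell-cycle gene Mki67, and 0 of Alpl, Sp7, Dlx5, Bglap and Ptprc. In Gel100, 5 Ibsp UMIs were spread over 2 cells, and the cell with 4 of them also held 502 UMIs of Lyz2 and 68 of C1qa, both macrophage genes. Bglap had 3 UMIs in 1 Gel50_CS50 cell and 0 in Gel100, where a count of 0 allows a level of up to 0.268 CPM. That limit covers UMIs assigned to Bglap and not reads that its copies share. The Bglap cell held 71 UMIs of Runx2, 2 of Sp7, 10 of Alpl and 3 of Bglap2, and also 656 of Lyz2. Macrophages held 15 and 21 Bglap UMIs, 0.20 and 0.34 CPM, so the stromal counts of Bglap (0.08 CPM in Gel50_CS50) were at or under that level.

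Cells carrying Runx2 with at least 2 of Sp7, Alpl, Ibsp, Bglap and Phex, a combination of osteoblast type, numbered 12 of 656 (1.83%, 0.95 to 3.17) in Gel50_CS50. In Gel100 there were 0 of 256, which allows a share of up to 1.17% (1.43% by the exact interval) of cells in which the combination is detected. It does not limit the share of cells of that type, since most of these genes are read at few UMIs and the Gel100 class is shallower. All 12 lay in the same cluster, and Sp7 was detected in 10 of them, Alpl in 10, Phex in 4, Bglap in 1 and Ibsp in 0. The intervals of the 2 libraries overlapped. At 10000 UMIs a cell the count was 4 of 651 and 0 of 189, and with at least 3 of the 5 genes it was 1 and 0. That 1 cell was the Bglap cell described above, which also held 656 UMIs of Lyz2, 21 of Adgre1 and 11 of Ptprc, all genes of immune cells.

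The stromal class was made of 2 clusters, found with the 10 genes and the related gene lists left out of the variable genes. Cluster 15 was led by Itgbl1 and Col11a1 and had more of the contractile gene Acta2 (873 and 661 CPM in the 2 libraries, against 199 and 232 CPM in cluster 17) and of Mki67 (140 and 113 CPM against 28.5 and 37.3 CPM). Cluster 17 was led by Clec3b and Dpt, genes known from adventitial fibroblasts. Cluster 15 made up 54.4% of the stromal cells in Gel50_CS50 and 53.5% in Gel100, but this near-equal balance depended on the clustering. At resolution 0.6 the cluster with Clec3b and Dpt among its leading genes held 440 Gel50_CS50 and 190 Gel100 cells, and the other 216 and 66. With each library clustered alone, Gel50_CS50 had 297 cells in a cluster led by Clec3b and 355 in the other. Gel100 then had 206 in a cluster with Dpt among its leading genes and 66 in the other. The values that follow describe the clusters of the joint clustering at resolution 1 and test nothing, since genes that vary together with the 10 shaped the clustering.

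The regulators Msx1, Msx2, Runx2 and Sox9 were higher in cluster 15 than in cluster 17 in both libraries. For Runx2 the size differed, with fold intervals of the 2 libraries that did not overlap. Msx1 stood at 57.0 CPM in cluster 15 and 3.39 CPM in cluster 17 of Gel50_CS50 (16.8-fold, 12.95 to 22.3). In Gel100 it stood at 53.7 and 2.61 CPM (20.5-fold, 12.3 to 37.2). Alpl stood at 23.4 and 0.34 CPM in Gel50_CS50 (67.9-fold, 30.96 to 186). In Gel100 it stood at 8.46 CPM in cluster 15, with 46 UMIs, and had 0 UMIs in cluster 17, at least 16.2-fold higher against a floor of 3 counts per cluster. Msx2 had 90 UMIs in cluster 15 and 3 in cluster 17 of Gel50_CS50, and 21 and 0 in Gel100. Runx2 was present in both clusters, at 349 and 151 CPM in Gel50_CS50 (2.31-fold, 2.21 to 2.41) and at 268 and 160 CPM in Gel100 (1.67-fold, 1.54 to 1.82). Sox9 differed least among the abundant regulators, at 29.7 and 20.4 CPM in Gel50_CS50 (1.45-fold) and 36.6 and 24.2 CPM in Gel100 (1.51-fold). Its interval reached below 1.5-fold in both libraries. Phex showed 1.43 and 1.49 CPM in Gel50_CS50, with no difference beyond counting error. In Gel50_CS50, 5 of the 7 genes with at least 1 CPM (Runx2, Msx1, Msx2, Alpl and Ibsp, the last from 1 cell) were beyond 1.5-fold higher in cluster 15 and 0 lower. Over all measured genes of that library 11% were higher and 8.32% lower, 19.3% in all. In Gel100, 4 of 5 (Runx2, Msx1, Msx2 and Alpl) were higher and 0 lower, beside 11.9% higher and 6.49% lower, 18.4% in all.

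Split by cluster, Runx2 had a larger ratio between the libraries in cluster 15. There it was 349 CPM in Gel50_CS50 and 268 CPM in Gel100, a log2 ratio of 0.38 (0.30 to 0.47). In cluster 17 it was 151 and 160 CPM, a log2 ratio of -0.08 (-0.19 to 0.03). The intervals of the 2 ratios did not overlap, and no test of their difference was possible without replicates. Both ratios hold for the joint clustering at resolution 1. They were not computed for the other clusterings, where the Gel100 cells were divided differently. Alpl within cluster 15 stood at 23.4 CPM in Gel50_CS50 and 8.46 CPM in Gel100, a log2 ratio of 1.47 (1.03 to 1.94). Msx1 within cluster 15 was at 0.09 (-0.10 to 0.28). Cluster 15 cells had a median of 52319 UMIs in Gel50_CS50 and 37263 in Gel100, and the part of depth in the Alpl and Runx2 values within the cluster was not tested.

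**Figure D3:**
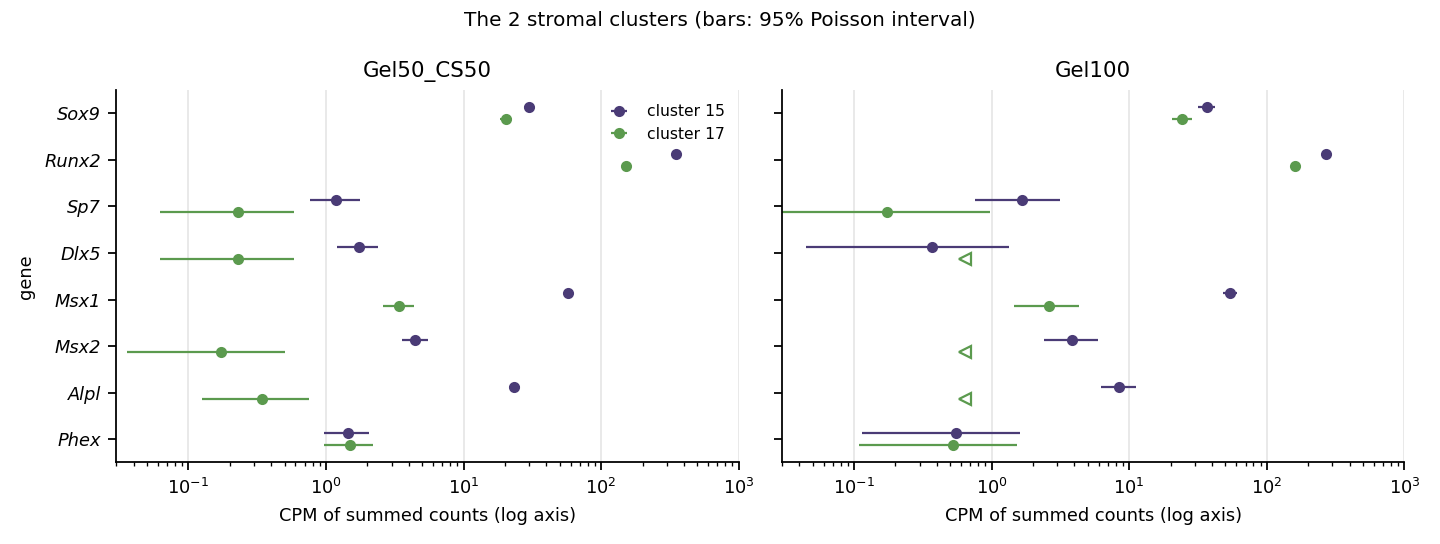
Levels of 8 of the genes in the 2 stromal clusters of each library (CPM of summed counts, log axis, bars 95% Poisson intervals; open triangles mark the upper limit at 0 UMIs). Msx1, Msx2 and Alpl are higher in cluster 15 in both libraries, while Phex coincides in the 2 clusters.

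Across the other cell classes, Runx2 was not a gene of stromal cells alone. Plasmacytoid dendritic cells, interferon-producing immune cells that depend on Runx2 in mice, held it in all 257 cells of Gel50_CS50 and all 416 cells of Gel100. Their level was 2787 CPM (2739 to 2835) in Gel50_CS50 and 2613 CPM (2576 to 2650) in Gel100. That is 10.8-fold (10.5 to 11.1) and 12.3-fold (11.8 to 12.8) the stromal level of the same library. T and NK cells stood at 372 and 381 CPM, 1.44-fold (1.37 to 1.52) and 1.79-fold (1.70 to 1.89) the stromal level. Below the stromal 257 and 212 CPM came neutrophils at 195 and 149 CPM and conventional dendritic cells at 129 and 86.3 CPM. Lower still were pericytes and smooth muscle at 88.8 and 22.8 CPM, macrophages and monocytes at 24.1 and 23.1 CPM, and endothelial cells at 22.9 and 26.7 CPM. Within this order the macrophage and endothelial levels did not differ beyond their intervals in Gel50_CS50, nor did those 2 and the pericyte level in Gel100. An unnamed cluster led by Foxp3 held 427 and 467 CPM. Mast cells and basophils held 65.1 and 65.4 CPM from 8 and 3 UMIs, with intervals of 28.1 to 128 and 13.5 to 191 CPM, too wide for a place in the order. The B cell class is left out of the order, because it had 13 cells in Gel50_CS50, and in Gel100 67 of its 100 cells carried the plasmacytoid gene Siglech and 9 carried Cd79a.

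The other 2 Runx genes had another order. Runx1, the Runx factor of blood cells, stood at 1249 and 1349 CPM in T and NK cells, 671 and 534 CPM in plasmacytoid dendritic cells and 329 and 258 CPM in stromal cells. Runx3, a factor of cytotoxic lymphocytes, stood at 391 and 384 CPM in T and NK cells, 288 and 227 CPM in plasmacytoid dendritic cells and 8.45 and 7.52 CPM in stromal cells. Supt3, which overlaps Runx2 on the opposite strand, stood at 190 and 157 CPM in plasmacytoid dendritic cells and 97.2 and 76.5 CPM in stromal cells. Whether the counting used strand is not stated, so reads of the shared stretch may have been given to either gene.

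**Figure D4:**
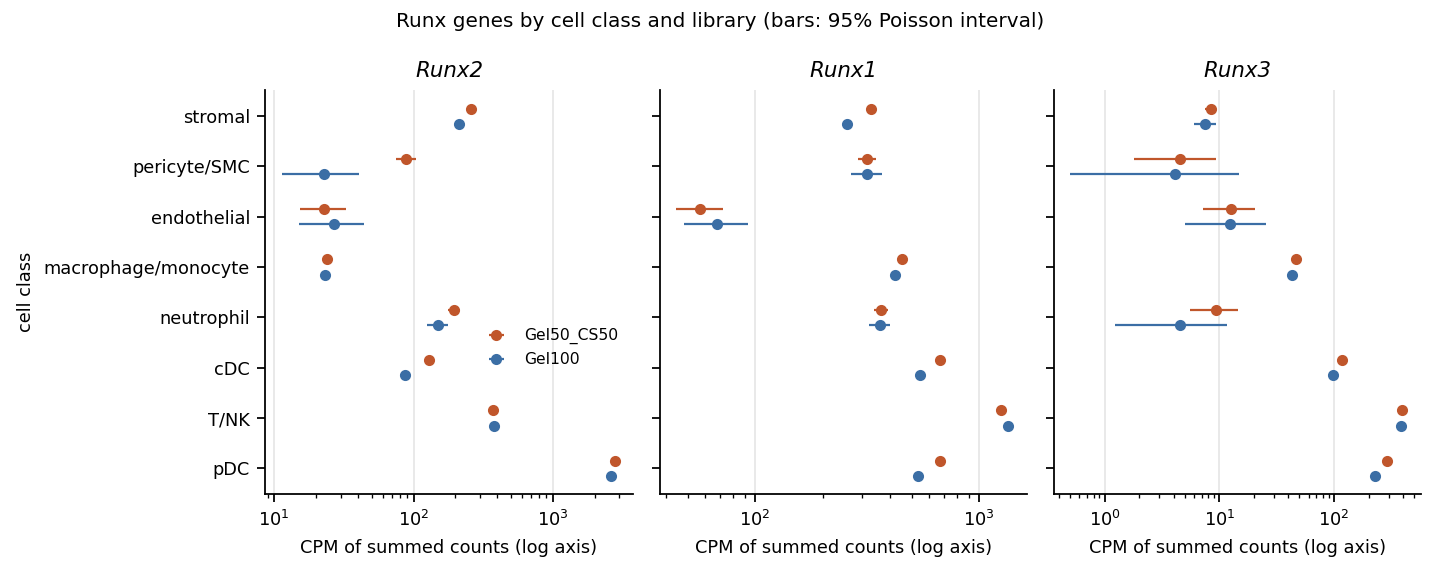
Levels of Runx2, Runx1 and Runx3 by cell class in both libraries (CPM of summed counts, log axis, bars 95% Poisson intervals). Runx2 is highest in plasmacytoid dendritic cells (pDC), at 2787 and 2613 CPM, and in the classes plotted Runx1 and Runx3 are highest in T and NK cells, at 1249 and 1349 CPM and at 391 and 384 CPM.

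Of the remaining members, Sox9, Dlx5, Msx1 and Msx2 were mostly restricted to mesenchymal classes, and Phex, Bglap and Sp7 were not. T and NK cells held Phex at 2.21-fold (1.18 to 3.92) the stromal level in Gel50_CS50 and 3.79-fold (1.47 to 11.5) in Gel100. Macrophages held 15 and 21 Bglap UMIs, against 3 and 0 in stromal cells. They held 17 and 18 Sp7 UMIs, at 0.31-fold and 0.33-fold the stromal level. Pericytes and smooth muscle held Msx1 at 52.8 CPM in Gel50_CS50 and 60.2 CPM in Gel100, 1.64-fold (1.29 to 2.05) and 2.19-fold (1.44 to 3.21) the stromal level. They held Dlx5 at 9.01 CPM (14 UMIs in 9 of 51 cells) and 8.30 CPM (4 UMIs in 3 of 28 cells), 8.69-fold (4.36 to 16.4) the stromal level in Gel50_CS50. Endothelial cells held Msx1 at 10.3 and 14.3 CPM from 13 and 8 UMIs. Macrophages, with 3633 and 3688 cells, held Msx1 at 0.27 and 0.26 CPM and Sox9 at 0.09 and 0.13 CPM. Neutrophils, with 450 and 167 cells in the named clusters, had 0 UMIs of Sox9, Sp7, Dlx5, Msx1, Msx2 and Phex in both libraries. At 3 counts that allows up to 1.47 CPM in Gel50_CS50 and 3.39 CPM in Gel100. Plasmacytoid dendritic cells, with the highest Runx2, had 0 UMIs of Sox9, Dlx5, Msx2, Ibsp and Bglap in both libraries.

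**Figure D5:**
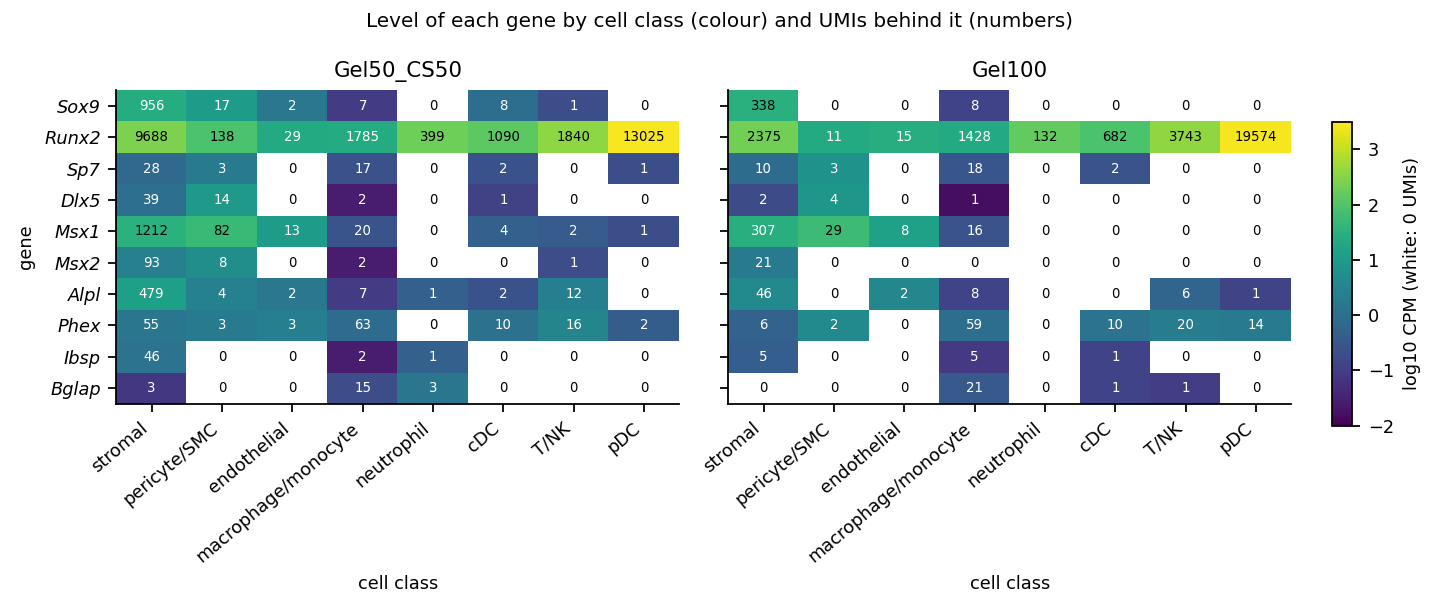
Level of the 10 genes in 8 cell classes of Gel50_CS50 (left) and Gel100 (right), as log10 CPM in colour with the UMI count printed in each field and white for 0 UMIs. Runx2 fills every class, Msx1 and Dlx5 are highest in pericytes and smooth muscle, and Ibsp and Bglap have at most 46 UMIs in any class.

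The genes whose levels varied most like a member over stromal cells were ranked among 13111 genes by the lower Pearson correlation of the 2 libraries, over 656 cells of Gel50_CS50 and 256 of Gel100. Cells of a library share depth, which can raise such values. For Runx2 they were Adcy2 (0.55 in Gel50_CS50, 0.45 in Gel100), Epha3 (0.49, 0.36), Kif26b (0.39, 0.36), Ptprd (0.54, 0.34) and Cdh11 (0.36, 0.33). Adcy2 remained first at 10000 UMIs a cell (0.39, 0.30). For Msx1 they included Mgp (0.68, 0.71), Foxd1 (0.62, 0.60), Cpe (0.62, 0.59) and Col4a1 (0.63, 0.59). Mgp remained first at 10000 UMIs a cell (0.54, 0.55). For Sox9 the highest, Cxcl12, reached 0.23 and 0.24, and the next 4 were Tmsb10, Serpinh1, Ssr2 and Nradd. These values are weak, and at 10000 UMIs a cell Cxcl12 stood at rank 49 (0.17, 0.10), Serpinh1 at rank 29 and Nradd at rank 60.

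Genes that work around the members were read from 8 lists. Among osteoblast transcription factors and co-regulators, 15 of 17 were measured, 0 were beyond 1.5-fold higher and 2 lower, and the median log2 ratio was 0.00. The 2 were Twist2, a factor that restrains Runx2, at 39.9 CPM in Gel50_CS50 and 77.4 CPM in Gel100, and Lef1, a Wnt effector, at 0.80 and 3.31 CPM. Zeb2 stood at 536 and 498 CPM and Runx1 at 329 and 258 CPM. Among craniofacial patterning factors, 12 of 15 were measured and 0 were called in either direction, with a median of 0.12. Prrx1, a marker of skull and limb mesenchyme, stood at 788 and 790 CPM, Tcf12 at 321 and 301, Prrx2 at 112 and 91.5, and Foxc1 at 38.4 and 41.2.

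Bone morphogenetic proteins act upstream of Runx2, Dlx5 and the Msx genes. Of their ligands 6 of 8 were measured, with 0 higher and 2 lower and a median of -0.65. Bmp5 stood at 7.17 CPM in Gel50_CS50 and 20.04 CPM in Gel100, where 1 cell held 64 of 224 UMIs, and Bmp2 at 1.30 and 3.4 CPM. Bmp6 stood at 52.6 and 41.1 CPM and Bmp4 at 7.28 and 8.68 CPM. All 10 receptors and Smads were measured and 0 were called, with a median of -0.01; Bmpr2 stood at 192 and 180 CPM, Smad4 at 115 and 117, Bmpr1a at 113 and 109, and Acvr1 at 99.7 and 79.5. Of targets and inhibitors 14 of 15 were measured, with 0 higher and 1 lower and a median of 0.00. That was Id4, at 0.98 and 2.51 CPM, while Fstl1 stood at 2321 and 2760 CPM, Id3 at 211 and 178 and Bmper at 79.8 and 67.8.

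Of the bone matrix and mineralization genes 16 of 24 were measured, with 0 higher and 1 lower and a median of -0.04. Mgp, an inhibitor of mineral, stood at 1159 CPM in Gel50_CS50 and 2232 CPM in Gel100, where 1 cell held 3330 of 24945 UMIs. The collagen genes Col1a2 (14091 and 12067 CPM) and Col1a1 and the matrix gene Sparc (7755 and 6715 CPM) were not called. The osteocyte genes Mepe and Sost and the mineralization phosphatase Phospho1 had 0 UMIs in both libraries, and Dmp1 had 1 UMI in Gel50_CS50 and 0 in Gel100.

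Of 20 cartilage genes 13 were measured, with 3 higher, 2 lower and a median of 0.09. Col11a1, a fibril collagen, stood at 579 CPM in Gel50_CS50 and 316 CPM in Gel100, and Matn4, a matrix adaptor, at 36.2 and 19.4 CPM. Comp, named because it was the third of the 3 after its values were seen, had 63 UMIs (41 of them in 1 cell) and 5 UMIs. The 2 lower genes are collagens of formed cartilage. Col10a1 stood at 2.36 CPM in Gel50_CS50 and 36.8 CPM in Gel100, where 12 cells held it and 1 of them 180 of 411 UMIs. Col2a1 stood at 1.83 and 11.7 CPM, with 93 of 131 UMIs in 1 Gel100 cell. Matn1 and Ihh had 0 UMIs in both. Of 13 skeletal progenitor genes 12 were measured, with 1 higher, 1 lower and a median of 0.16. Cxcl12, a chemokine of stromal niches, stood at 238 CPM in Gel50_CS50 and 143 CPM in Gel100, and the surface glycoprotein Thy1 at 181 and 324 CPM. Acta2 stood at 561 and 440 CPM and Ctsk at 255 and 218 CPM.

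Genes listed as markers of other cells were read in the stromal class beside these values. A list can hold genes that stromal cells also express, so its sum does not measure the RNA of those other cells. The macrophage list (13 of 13 measured) summed to 1263 and 1175 CPM, with 0 higher and 3 lower, and the neutrophil list (6 of 8 measured) to 188 and 124 CPM, with 1 higher. The pericyte list (7 of 9 measured) summed to 72.5 and 66.5 CPM, with 1 higher, and Higd1b had 0 UMIs in Gel100. The osteoclast list (3 of 7 measured) summed to 282 and 245 CPM, with 0 called and Calcr at 0 in both. Most of that sum was Ctsk, which is also in the skeletal progenitor list above. In stromal cells with no Ptprc UMI, 455 in Gel50_CS50 and 152 in Gel100, the Alpl ratio was 1.45 (1.01 to 1.93). The other lists were those for endothelial cells (7 of 8 measured, 66.3 and 59.2 CPM summed, 1 lower), T and NK cells (6 of 10, 72.8 and 69.0 CPM, 1 lower), conventional dendritic cells (4 of 10, 144 and 168 CPM, 1 lower) and plasmacytoid dendritic cells (6 of 7, 858 and 1036 CPM, 0 called). Type 2 innate lymphoid cells (5 of 7, 649 and 768 CPM) had 1 higher and 1 lower. B cells (1 of 6, 1.54 and 2.15 CPM) had 0 called, and mast cells (1 of 8, 1.94 and 6.53 CPM) had 1 lower. Meningeal fibroblasts (5 of 6, 125 and 108 CPM) had 1 lower, tendon or synovial cells (4 of 4, 111 and 88.1 CPM) had 1 higher, and erythroid cells or platelets (1 of 5, 29.7 and 14.05 CPM) had 1 higher. Skeletal muscle (1 of 6, 6.46 and 5.28 CPM) had 0 called, and of 4 adipocyte genes 0 were measured. The part of these cells in the values of the 10 genes was not tested.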

How the data were processed

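The authors' deposited matrices hold whole-number UMI counts for each gene in each barcode, not normalized, from Cell Ranger 6.0.2 per the file headers and mm10 per the submitters' processing notes. No annotation release is named in the sources used here; 99.8% of identifiers were found in GENCODE vM21, which gave coordinates. The libraries had 150311308 UMIs over 7515 barcodes (Gel50_CS50) and 108847835 over 7845 (Gel100).

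The 10 genes and all lists were chosen with earlier results of these data known, and limits on cluster names were set after clusters were seen. Barcodes with at least 200 genes, 500 UMIs and under 20% mitochondrial counts were kept (117 and 65 removed). Scrublet in scanpy 1.11.5, at an expected rate of 0.06, called 192 (2.60%) and 179 (2.30%) doublets, which were removed. The 24 shared barcodes (22 after filtering) stayed in both. Counts scaled to 10000 per cell gave 3000 variable genes (the 10 and the lists left out), 30 components and 15 neighbours, and the libraries were clustered jointly by leidenalg 0.10.2 (resolution 1). Clusters took the class with the highest marker score, at least 1.5 and 0.5 above the next, with 3 or more markers in 10% of cells. They stayed unnamed below a median of 1000 UMIs, at a depth low for their library with none of the class's markers among the 10 leading genes, or with leading genes of another type. So 2 clusters of neutrophil score (300 and 651 Gel50_CS50 cells, 403 and 44 Gel100 cells) are not in the neutrophil values. A low-UMI cluster whose highest score was stromal held 152 Gel50_CS50 and 892 Gel100 cells. It and 10 Gel50_CS50 cells with stromal and neutrophil genes are not in the stromal values or shares.

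Counts were summed per class and library and scaled to 1e6 (CPM). Ratios have exact conditional binomial, levels Poisson and shares Clopper-Pearson 95% intervals; a count of 0 allows 3 counts. They cover counting error only. No test was run, since each group is 1 library; genes are called where the whole interval lies beyond 1.5-fold. The computation was tested on simulated data. Thinning drew 3000 or 10000 UMIs per cell. Named genes are the 10, the 5 most correlated with members seen in at least 5% of stromal cells, and up to 4 a list (called ones, then the most abundant); 1 correlated gene and 1 marker list are not reported here.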

Additional observations from a re-analysis of the deposited data

Results flagged for a closer look

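For 3 genes the difference between the libraries ran in opposite directions in 2 groups of cells, with both counting intervals away from 0. None of these contrasts was tested, since there is 1 library per scaffold. Sox9 was at a log2 ratio of -0.25 in stromal cells, with 956 UMIs in Gel50_CS50 and 338 in Gel100, while conventional dendritic cells had 8 UMIs (in 3 cells) in Gel50_CS50 and 0 in Gel100. Phex was at 1.44 in stromal cells (55 UMIs in Gel50_CS50, 6 in Gel100) and at -2.13 (-5.31 to -0.0045) in plasmacytoid dendritic cells (2 UMIs in Gel50_CS50, 14 in Gel100). The stromal interval of Phex crossed 0 with each library clustered alone, at 0.49 (-0.43 to 1.53), and with cells gated one by one, at 0.89 (-0.47 to 2.61). Ibsp was at 3.63 in stromal cluster 15, with 46 UMIs from 1 cell of Gel50_CS50 and 1 UMI in Gel100, and had 0 UMIs in Gel50_CS50 and 4 in Gel100 in cluster 17. Each contrast rests on 14 or fewer UMIs in at least 1 of its groups, and the Ibsp contrast on single cells.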

How the results depend on the processing

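Alpl was the gene beyond 1.5-fold under 16 of 18 alternatives. None was called with a mean level of at least 20 CPM (0), which leaves Alpl out, or with cells thinned to 3000 UMIs (0). After that thinning the Alpl ratio was 0.65 (-0.35 to 1.80), below the interval of 1.19 to 2.10 without thinning. The part of depth in that shift was not tested. Weighting the stromal clusters equally gave 2, with Phex, but by point values without intervals, as with each cell weighted equally. The median log2 ratio of the measured members was 0.28 over 5 genes. It reached 0.65 when stromal cells were gated cell by cell, with no UMI of Ptprc, Pecam1 or Rgs5. That median is over 6 genes, with Phex (0.89) added, so the 2 medians are not over the same set. The cells with the osteoblast-type combination, 12 in Gel50_CS50, were 4 at 10000 UMIs and 1 with at least 3 of the 5 genes. Sox9 was at 0.00069 instead of -0.25 with cells weighted equally and at 0.15 at 3000 UMIs. Msx1 was at -0.14 instead of 0.23 at 3000 UMIs and at -0.022 without Ptprc-positive cells, an alternative added after the data were seen, as were cells with at least 10000 UMIs, the removal of the highest cell and 1 not described here. The cause was not tested. Runx2 stayed positive under all 18, between 0.09 and 0.35, and Alpl between 0.65 and 1.97. With each library clustered alone, Runx2 in plasmacytoid dendritic over stromal cells was at 3.44 and 3.63. No paired analysis was possible because each scaffold is 1 library. Depth limits Sp7, Dlx5, Phex, Ibsp and Bglap, which had 10 or fewer UMIs in Gel100 stromal cells.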
